A study of Mus musculus with 21 samples.

Results

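The genes described here are 10 genes of the amino acid stress response that is driven by the transcription factor ATF4: Atf4, Atf5, Ddit3, Nupr1, Trib3, Chac1, Sesn2, Asns, Psat1 and Phgdh. They were chosen by gene name, from knowledge of the pathway, as the entries with these names in both deposited expression tables. They are 10 of 55291 gene names in the series, and all 10 stand in both tables.

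When amino acids run short, uncharged tRNAs activate the kinase GCN2, which phosphorylates the translation factor eIF2alpha. General translation then slows while the Atf4 mRNA, which carries upstream reading frames, is translated more. ATF4 protein pairs with C/EBP proteins and other bZIP factors at composite DNA sites and induces genes for amino acid synthesis, amino acid uptake and tRNA charging, together with feedback regulators and cell death factors. Because ATF4 is controlled mainly at translation, the level of its own mRNA is only a partial readout of its activity. The same branch is reached from the endoplasmic reticulum (ER) through the kinase PERK.

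RNA was sequenced from mouse cells labelled as the line OG2, a name used for mouse cells that carry an Oct4-GFP reporter. A table of cell states has 12 libraries in 4 groups of 3, all labelled WT: 2-cell-like cells (2CLCs, which express genes of the 2-cell embryo), ESCs (embryonic stem cells), EpiSCs (stem cells of the epiblast, in a later and primed state) and MEFs (fibroblasts of the mouse embryo). A lactate table has 9 libraries, again in groups of 3: ESCs without added sodium lactate (0 mM, labelled WT), with 60 mM and with 80 mM sodium lactate. How the 2CLCs were obtained and how long lactate was present are not stated in the labels, and since no label ties the replicates to separate cultures, the p-values reflect only how far these samples scatter.

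Values are FPKM (fragments scaled to transcript length and library size) as deposited, a level per length of transcript that can be set side by side between genes. How many reads they rest on is not known. The FPKM of a library added up to between 375926 and 519915 for the cell states and between 396792 and 409131 for lactate. Marker genes went with the labels: the summed level of 8 markers of 2CLCs was 11320 to 12490 FPKM in 2CLCs and 4.45 to 4.68 FPKM in ESCs, 7 primed markers summed to 717 to 878 FPKM in EpiSCs, and 9 fibroblast markers to 1043 to 1055 FPKM in MEFs. One EpiSC library, replicate 1, stands apart from the others: its log2 values correlated at r = 0.9733 and 0.9726 across genes with EpiSC replicates 2 and 3, which correlated with each other at r = 0.9955. Counts for EpiSCs are therefore given with and without it. Differences are given as log2(FPKM + 1) with their standard error (SE), and the added 1 makes changes of genes near 0 look smaller than they are. A gene is called higher or lower where limma's p-value, adjusted over all genes tested by the Benjamini-Hochberg method, was under 0.05.

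On GRCm38, GENCODE places Chac1 at chr2:119351229-119354381 (plus strand), Trib3 at chr2:152337422-152344032 (minus), Psat1 at chr19:15904678-15947337 (minus), Asns at chr6:7675169-7693254 (minus) and Nupr1 at chr7:126623249-126630861 (minus). These 5 are set first because their promoters carry the letters of a composite C/EBP-ATF site, the kind of element through which ATF4 acts. The RefSeq promoter windows of GRCm38.p6, from 250 bases before to 50 bases after a gene's start, were searched on both strands for TGATGNAA and for the variant TGGTGCAA; no 8 letters match both on the same strand. All 10 genes had a window (12 windows in all, since 2 of the genes have a pair of starts), and 5 of the 10 genes held a match. Over all 32851 promoter windows of that length, 3.97% held TGATGNAA, 0.54% held TGGTGCAA and 4.48% held either. For Psat1 and Nupr1 the window with the match lies inside the gene as GENCODE places it. For 3 genes the stretch before the RefSeq start that is free of annotated exons is printed. It is given on the gene's strand, 5′ to 3′, with the match in capitals, at chr2:119350992-119351228 for Chac1, chr2:152344061-152344310 for Trib3 and chr19:15925060-15925309 for Psat1.
Chac1: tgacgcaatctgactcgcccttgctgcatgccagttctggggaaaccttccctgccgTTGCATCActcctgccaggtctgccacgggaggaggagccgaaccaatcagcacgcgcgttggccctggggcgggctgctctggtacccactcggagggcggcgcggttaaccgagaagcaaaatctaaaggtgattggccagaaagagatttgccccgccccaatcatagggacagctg
Trib3: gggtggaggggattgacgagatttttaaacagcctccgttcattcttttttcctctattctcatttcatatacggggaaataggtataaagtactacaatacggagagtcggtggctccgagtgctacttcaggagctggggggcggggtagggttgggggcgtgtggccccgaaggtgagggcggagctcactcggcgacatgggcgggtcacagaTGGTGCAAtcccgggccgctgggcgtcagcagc
Psat1: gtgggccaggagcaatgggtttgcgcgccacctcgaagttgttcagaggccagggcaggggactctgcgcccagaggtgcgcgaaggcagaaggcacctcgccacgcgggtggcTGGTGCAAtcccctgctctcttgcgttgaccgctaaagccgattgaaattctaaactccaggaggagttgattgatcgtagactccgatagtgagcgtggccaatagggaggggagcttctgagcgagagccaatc

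Counted from the start site, the match begins at position -193 in Chac1, where TTGCATCA is TGATGNAA on the other strand, at -33 in Trib3 and at -136 in Psat1. In Asns and Nupr1 the match lies inside an annotated exon, so only 30 bases around it are printed. They are at chr6:7693214-7693243 (match at position -23) and chr7:126625562-126625591 (match at position -110, on the other strand), both minus strand.
Asns: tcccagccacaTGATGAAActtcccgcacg
Nupr1: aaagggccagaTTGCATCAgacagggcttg
Trib3 held a further match, TTACATCA, at position 14 after its start. No match was found in the windows of Atf4, Atf5, Ddit3, Sesn2 and Phgdh, which says only that these letters are not in these windows. On the deposited scale the 5 genes with a match did not share 1 pattern over the cell states: in 2CLCs Asns was higher than in ESCs while the other 4 of them were lower, and in MEFs Nupr1 was higher while the other 4 were lower.

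Across the 4 cell states the 10 genes did not move as a block. Asns was highest in 2CLCs, Atf4 in ESCs, Psat1 and Phgdh in EpiSCs, and Nupr1 in MEFs, each called above the state next in order. Atf5 had its highest mean in MEFs but was not told apart there from EpiSCs (difference 0.30, adjusted p = 0.0903). Chac1, Trib3 and Sesn2 had their highest mean in EpiSCs, in which replicate 1 lay far below the other EpiSC libraries. With the levels of a gene put in order over the 4 states, 17 of the 27 neighbouring pairs tested differed at an adjusted p under 0.05, and 24 of 27 without EpiSC replicate 1. Over all genes tested, the pairs of states not set against ESCs below also differed widely, with 82.1% of genes called between 2CLCs and EpiSCs, 84.4% between 2CLCs and MEFs and 72.4% between EpiSCs and MEFs. Without EpiSC replicate 1 these shares also rose, to 83.9%, 89.6% and 76.1%. Against ESCs they were then 82.8% for 2CLCs, 66.9% for EpiSCs and 80.9% for MEFs. In bulk RNA, fewer cells expressing a gene and less of its RNA per cell cannot be told apart.

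**Figure D1:**
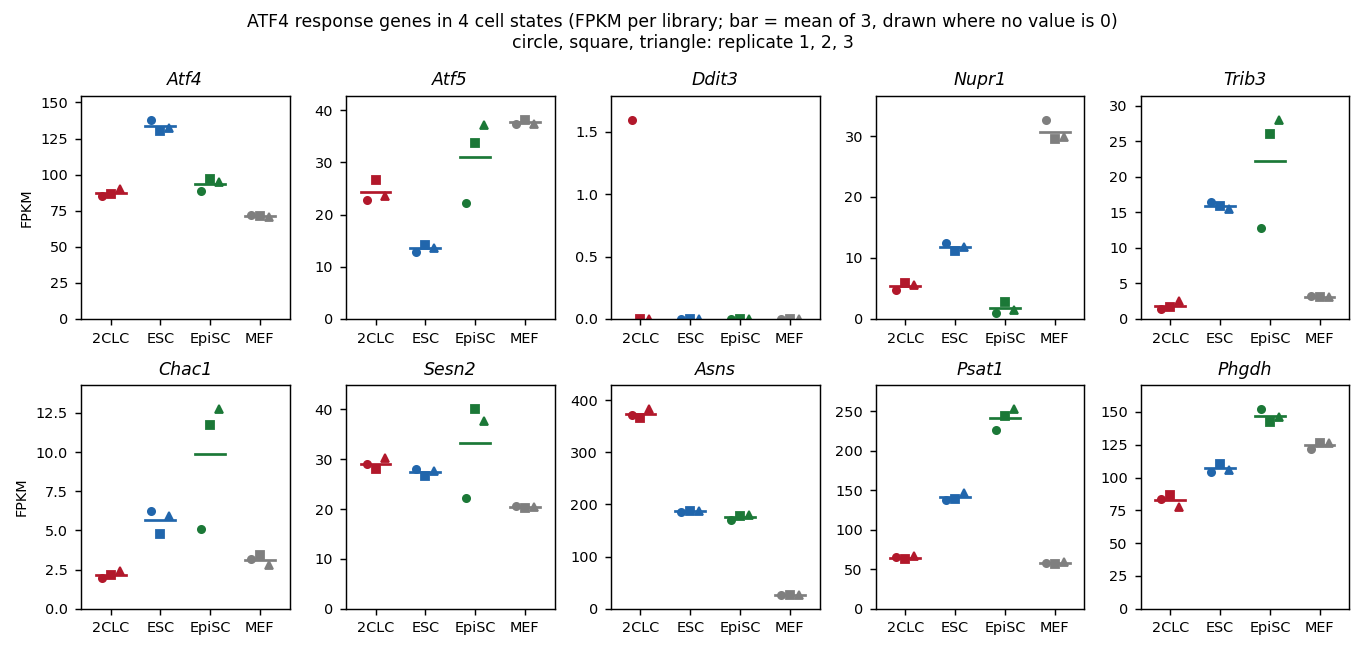
FPKM (vertical axes, each from 0) of the 10 ATF4 response genes in the 12 libraries of the cell-state table, with circles, squares and triangles for replicates 1, 2 and 3 and a bar at the mean of 3 where no value is 0. Asns is highest in 2CLCs and lowest in MEFs, and EpiSC replicate 1 lies below the other EpiSC libraries for Chac1, Trib3, Sesn2 and Atf5.

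Among the transcription factors, Atf4 (chr15:80255184-80257541, plus strand) stood at 138, 130 and 132 FPKM in ESCs, 88.9, 97.2 and 94.6 in EpiSCs, 85.5, 86.6 and 90.3 in 2CLCs and 72.1, 71.4 and 70.7 in MEFs. Every ESC library lay above every other library and every MEF library below. Atf4 was lower than in ESCs by -0.60 (SE 0.048, adjusted p = 3.84e-07) in 2CLCs, -0.51 (SE 0.048, adjusted p = 3.67e-06) in EpiSCs and -0.89 (SE 0.048, adjusted p = 1.05e-08) in MEFs. EpiSCs and 2CLCs, neighbours in that order, were not told apart (difference 0.10, adjusted p = 0.087). The 2CLC value depends on the scaling, as given with the counts below.

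Atf5, a relative of ATF4 that is also translated under eIF2alpha phosphorylation and acts in the mitochondrial stress response, ran the other way (chr7:44812256-44816658, minus strand). It stood at 12.8, 14.2 and 13.6 FPKM in ESCs, 22.9, 26.7 and 23.5 in 2CLCs, 22.2, 33.7 and 37.2 in EpiSCs and 37.4, 38.2 and 37.4 in MEFs. The ESC libraries were the lowest, with no overlap with any other state. Atf5 was higher than in ESCs by 0.80 (SE 0.149, adjusted p = 0.000458) in 2CLCs, 1.11 (SE 0.149, adjusted p = 6.43e-05) in EpiSCs and 1.41 (SE 0.149, adjusted p = 4.35e-06) in MEFs. Thus in each of these states the mRNA of Atf4 was called lower and that of Atf5 higher, the first of which was reversed in 2CLCs under median-of-ratios scaling; the 3 comparisons share the ESC libraries.

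Ddit3 encodes CHOP, the factor tied to cell death under prolonged stress. In the cell-state table it is listed at 1.60 FPKM in 2CLC replicate 1 and at 0 in the other 11 libraries, so it did not reach the filter of 1 FPKM in 3 libraries and was not tested. GENCODE holds 2 overlapping genes of that name on the plus strand, at chr10:127290774-127296288 and chr10:127290829-127293753, and which of them the cell-state entry stands for cannot be told. The lactate table has 2 entries of that name, of which 1 is at 0 throughout, and their sum was between 4.63 and 7.05 FPKM in every ESC library. The 0 values of the cell-state table were not read as absence of CHOP mRNA.

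The regulators Nupr1 and Trib3 differed widely between states. Nupr1, a small stress-induced chromatin cofactor, stood at 12.5, 11.2 and 11.9 FPKM in ESCs, 4.71, 5.94 and 5.62 in 2CLCs, 1.04, 2.72 and 1.45 in EpiSCs and 32.7, 29.4 and 29.9 in MEFs. The 4 states did not overlap, and all 3 neighbouring pairs in the order MEF, ESC, 2CLC and EpiSC were called (adjusted p between 3.89e-05 and 0.000313). Against ESCs the difference was -1.0 (SE 0.178) in 2CLCs, -2.28 (SE 0.178, adjusted p = 7.84e-07) in EpiSCs and 1.30 (SE 0.178) in MEFs.

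Trib3, a pseudokinase that is induced by ATF4 and represses it in turn, stood at 16.4, 15.9 and 15.5 FPKM in ESCs but at 1.37, 1.73 and 2.56 in 2CLCs and 3.22, 3.11 and 3.03 in MEFs. Its mean was 8.45 times higher in ESCs than in 2CLCs (difference -2.57, SE 0.242, adjusted p = 1.63e-06) and 5.11 times higher in ESCs than in MEFs (-2.04, SE 0.242, adjusted p = 1.17e-05). 2CLCs and MEFs did not overlap, but their difference was not called (adjusted p = 0.0589). EpiSCs held 12.8, 26.1 and 28.1 FPKM, with replicate 1 below and the others above every ESC library (0.39, SE 0.242, adjusted p = 0.197).

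Among the effectors, Chac1 encodes an enzyme that degrades glutathione, and Sesn2 encodes a leucine sensor that holds back the growth kinase complex mTORC1 (Sesn2 lies at chr4:132492032-132510501, minus strand). Chac1 stood at 6.21, 4.80 and 5.95 FPKM in ESCs, 1.95, 2.18 and 2.42 in 2CLCs, 3.21, 3.43 and 2.79 in MEFs and 5.09, 11.7 and 12.7 in EpiSCs. It was lower than in ESCs in 2CLCs (-1.06, SE 0.25, adjusted p = 0.00239) and MEFs (-0.68, SE 0.25, adjusted p = 0.0283), and its difference in EpiSCs was not called (0.63, SE 0.25, adjusted p = 0.0506). The MEF call was lost when ESC replicate 1 or 3 or MEF replicate 1 or 3 was left out (adjusted p from 0.0569 to 0.0824). Without EpiSC replicate 1, whose spread enters the shared error, the same difference had an adjusted p of 7.19e-05.

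Sesn2 had close levels in ESCs and 2CLCs. It stood at 28.1, 26.6 and 27.6 FPKM in ESCs, 29.1, 28.1 and 30.2 in 2CLCs, 22.2, 40.0 and 37.8 in EpiSCs and 20.6, 20.2 and 20.5 in MEFs. MEFs were below every other library, and their difference from ESCs was called narrowly (-0.41, SE 0.167, adjusted p = 0.0456), and not when any 1 ESC, MEF or 2CLC library was left out (adjusted p from 0.0541 to 0.102). Without EpiSC replicate 1 the difference was the same and its adjusted p was 2.69e-06. The difference of 2CLCs from ESCs was 0.083 (SE 0.167, adjusted p = 0.676).

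In ESCs the 3 biosynthetic enzymes and Atf4 had the highest levels per length among the 10 genes. Asns, asparagine synthetase, stood at 371, 366 and 382 FPKM in 2CLCs, 186, 187 and 188 in ESCs, 169, 177 and 179 in EpiSCs and 25.6, 25.6 and 25.4 in MEFs. Within each state the libraries lay close together, and 2CLCs were 1.99 times above ESCs (0.99, SE 0.04, adjusted p = 1.32e-09) while ESCs were 7.33 times above MEFs (-2.83 for MEFs against ESCs, SE 0.04, adjusted p = 3e-13). EpiSCs did not overlap with ESCs but were not called (-0.10, SE 0.04, adjusted p = 0.0638), except under median-of-ratios scaling (-0.20, adjusted p = 0.00174).

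Psat1 and Phgdh encode enzymes of the serine synthesis pathway, Phgdh its first step (chr3:98313170-98339990, minus strand). Psat1 stood at 226, 244 and 252 FPKM in EpiSCs, 138, 139 and 147 in ESCs, 64.9, 62.3 and 66.8 in 2CLCs and 57.7, 57.0 and 59.8 in MEFs. Its 4 states did not overlap, and all 3 neighbouring pairs were called, the narrowest being 2CLCs over MEFs (0.15, adjusted p = 0.0216). Against ESCs it was higher by 0.77 (SE 0.053, adjusted p = 3.04e-07) in EpiSCs and lower by -1.12 (SE 0.053, adjusted p = 5.13e-09) in 2CLCs and -1.27 (SE 0.053, adjusted p = 1.27e-09) in MEFs.

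Phgdh had a narrower range, with 152, 142 and 146 FPKM in EpiSCs, 122, 127 and 126 in MEFs, 104, 111 and 106 in ESCs and 84.0, 86.4 and 77.5 in 2CLCs. The states did not overlap and each neighbouring pair was called. Phgdh and Psat1 thus parted in MEFs: Phgdh was higher than in ESCs (0.22, SE 0.053, adjusted p = 0.00244), and Psat1 lower. In 2CLCs both were called lower, Phgdh by -0.37 (SE 0.053, adjusted p = 5.61e-05), a direction that median-of-ratios scaling reversed.

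In counts, 8 of the 9 genes tested were called between 2CLCs and ESCs, 2 higher (Atf5, Asns) and 6 lower, where 76.5% of all 16358 genes tested were called, 20.1% higher and 56.4% lower. The median difference of the 9 genes was -0.60 and that of all genes -0.46. The count is thus near the background, and 2CLC values of most genes lie below their ESC values on the deposited scale. Relative to the median of all genes, Atf4 differed by -0.15 and Phgdh by 0.09, while Trib3 differed by -2.12, Psat1 by -0.66, Atf5 by 1.26 and Asns by 1.45.

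Median-of-ratios scaling, which sets the typical gene to equal levels between libraries, turned the split of calls over all genes from 3296 higher and 9220 lower to 6018 higher and 5301 lower. Under it Atf4 (0.16, adjusted p = 0.0134) and Phgdh (0.39, adjusted p = 3.45e-05) were higher in 2CLCs, Sesn2 was called higher (0.83, adjusted p = 0.000977), and Nupr1 (-0.33, adjusted p = 0.104) and Chac1 (-0.48, adjusted p = 0.105) were not called. Trib3 (-1.99) and Psat1 (-0.35) stayed lower and Atf5 (1.54) and Asns (1.76) higher, all still called. Quantile normalization gave the same directions and calls as the deposited scale.

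**Figure D2:**
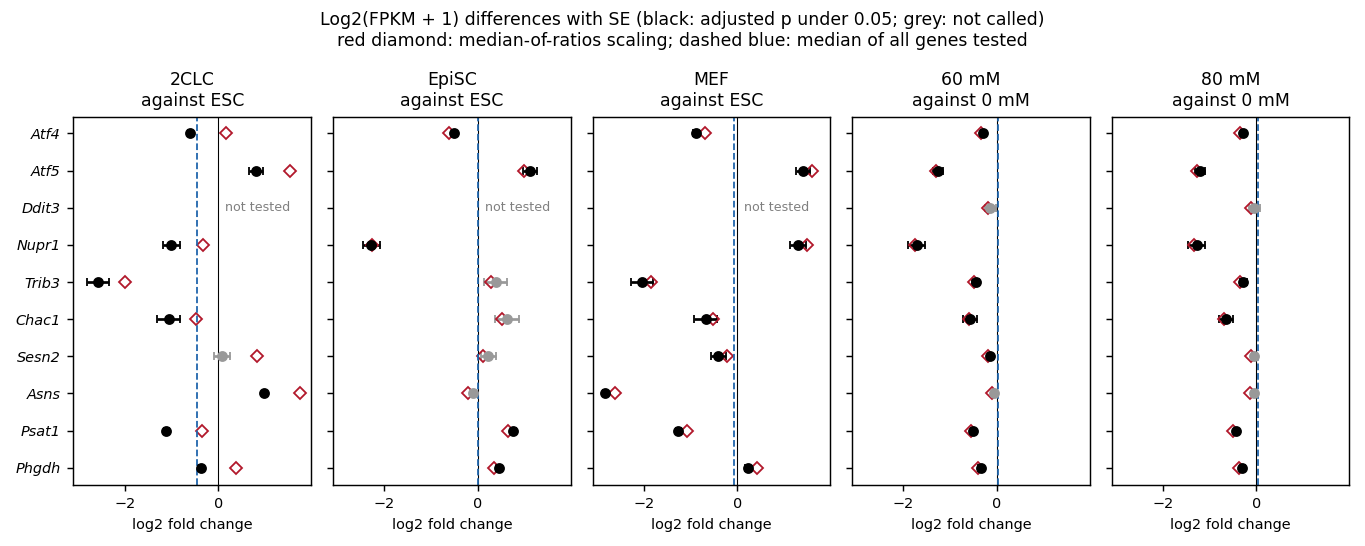
Differences on the log2(FPKM + 1) scale (horizontal axes) of the 10 genes in 3 cell states against ESCs and at 60 and 80 mM lactate against 0 mM, with SE bars, black where called and grey where not; red diamonds give median-of-ratios scaling and dashed blue lines the median of all genes tested. In 2CLCs the diamonds of Atf4 and Phgdh lie on the other side of 0 from the points, and at both lactate doses no point lies above 0.

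Between EpiSCs and ESCs 5 of the 9 genes tested were called, 3 higher (Atf5, Psat1, Phgdh) and 2 lower (Atf4, Nupr1), where 59.7% of all genes tested were called, 33.2% higher and 26.5% lower. Without EpiSC replicate 1 the count was 8 of 9, with 6 higher, where 66.9% of all genes tested were called. The 3 added were Chac1 (1.0, adjusted p = 1.39e-05), Trib3 (0.73, adjusted p = 0.00067) and Sesn2 (0.49, adjusted p = 2.84e-06). Asns was the gene that stayed uncalled (-0.07, adjusted p = 0.0521).

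EpiSC replicate 1 split the 10 genes. In it Chac1 was 2.40 times, Trib3 2.12 times, Nupr1 2.01 times, Sesn2 1.75 times and Atf5 1.60 times below the mean of EpiSC replicates 2 and 3. Atf4, Asns and Psat1 were 1.08, 1.05 and 1.10 times below that mean, and Phgdh was 1.05 times above it. So Trib3, the effectors and Atf5 were low in that library, and Atf4 and the 3 biosynthetic enzymes were near the others. Nupr1 was near 1 FPKM in EpiSCs, at 1.04, 2.72 and 1.45 FPKM in replicates 1, 2 and 3. Its replicate 3 lay nearer to replicate 1 than to replicate 2, so its value does not set replicate 1 apart.

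Other genes moved with that library. Over 8982 genes with a mean of at least 5 FPKM in EpiSCs, 12.6% were lower in replicate 1 by at least 0.5 (log2) and 14.3% higher, with a median difference of 0.03. Among listed stress targets, Ddit4, an inhibitor of mTORC1 that is also induced by low oxygen, stood at 50.8, 422 and 422 FPKM in EpiSC replicates 1, 2 and 3, Vldlr, a lipoprotein receptor, at 2.88, 18.4 and 18.7, and Bbc3, the death factor PUMA, at 18.1, 60.9 and 66.2. These had the largest falls of the lists in replicate 1, and other listed genes were higher in it. Eif2ak2 was 2.93 times, Slc38a2 2.44 times, Cth 2.36 times and Hspa5 1.74 times above the mean of replicates 2 and 3. The macrophage marker Cd68 ranged from 4.38 to 24.9 FPKM over the EpiSC libraries, with Lyz2 at 0.0953 FPKM or below and Ptprc at 0.0501 or below. Its part in these differences was not tested.

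**Figure D3:**
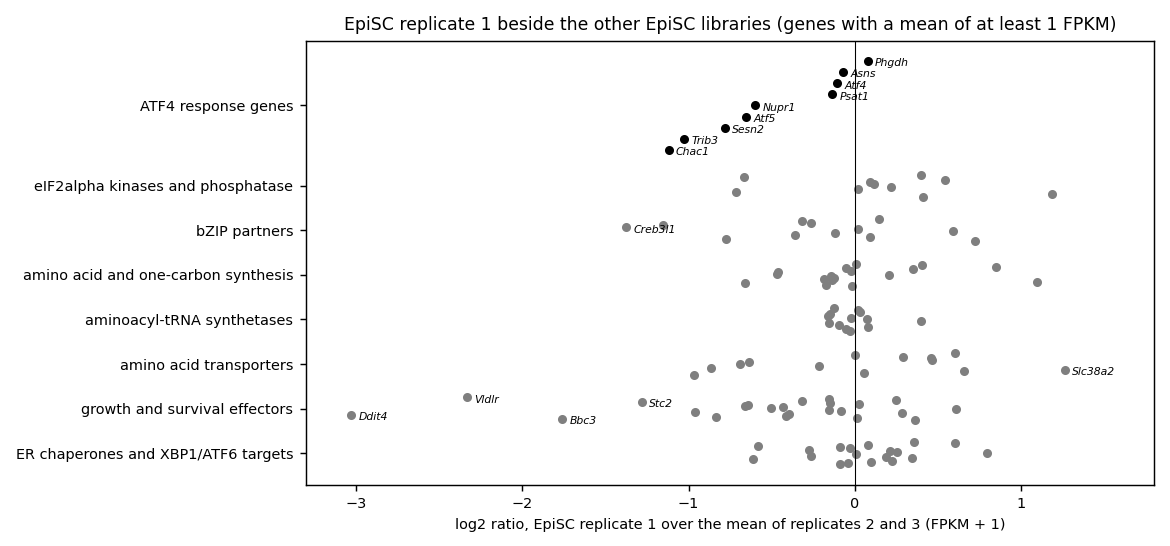
Log2 ratio of EpiSC replicate 1 to the mean of replicates 2 and 3 (FPKM + 1) for 9 ATF4 response genes (black) and 7 lists of related genes (grey), each point a gene with a mean of at least 1 FPKM in EpiSCs. Chac1, Trib3, Sesn2, Atf5 and Nupr1 lie left of 0, and Atf4, Asns, Psat1 and Phgdh near 0. Genes of the lists lie on both sides, with Ddit4, Vldlr and Bbc3 farthest left and Slc38a2 farthest right.

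Between MEFs and ESCs all 9 genes tested were called, 3 higher (Atf5, Nupr1, Phgdh) and 6 lower, where 75.3% of all genes were called, 34.4% higher and 40.9% lower. The median difference was -0.68 for the 9 genes and -0.07 for all genes. Under median-of-ratios scaling Chac1 (-0.51, adjusted p = 0.0818) and Sesn2 (-0.21, adjusted p = 0.275) were not called, and the others kept their calls. In MEFs the macrophage markers Lyz2 and Cd68 stood at 159 to 178 and 16.1 to 17.4 FPKM beside Ptprc at 0.904 to 0.985, and their part in these differences was not tested.

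The wider pathway was described by 7 lists of genes that hold none of the 10 (lists of 10 to 24 genes). Among regulators of eIF2alpha phosphorylation, 2 of 10 were higher and 8 lower in 2CLCs. Ppp1r15a, the stress-induced phosphatase subunit GADD34, was 3.86 times higher (42.3 ± 1.98 against 11.0 ± 0.616 FPKM, SD, n = 3) and Eif2ak3, which encodes PERK, 1.43 times higher, while Eif2ak2, the kinase PKR, was 9.09 times lower. Median-of-ratios scaling kept these 3 calls and moved the count to 2 higher and 4 lower. In EpiSCs 2 of 10 were higher and 5 lower (0 and 6 under median-of-ratios scaling, 3 and 6 without EpiSC replicate 1), and Impact, an inhibitor of GCN2 activation, was 21.3 times lower (2.01 ± 0.116 against 42.9 ± 1.91 FPKM). In MEFs 1 was higher (Eif2ak3, 1.54 times) and 4 were lower, a balance that depends on the scaling: it was 4 higher and 3 lower under median-of-ratios scaling and 2 higher and 4 lower under quantile normalization. Eif2ak3 was called higher on the deposited and the median-of-ratios scale, and Eif2s1, which encodes eIF2alpha itself, Gcn1, an activator of GCN2, and Ppp1r15b, the constitutive phosphatase subunit, were called lower on both.

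The bZIP partners of ATF4 differed by state. In MEFs 11 of 13 were higher and 1 lower, with Jun 65.2 times higher (81.4 ± 1.26 against 1.25 ± 0.138 FPKM) and Fosl1 at 28.6 ± 1.27 against 0.326 ± 0.195 FPKM. Fosl1 averaged under 1 FPKM in ESCs, and the MEF libraries were enough for it to pass the filter. Its call, which is among the 11, is therefore partly set by that filter. In EpiSCs 7 of 13 were higher and 2 lower, the same counts as without EpiSC replicate 1, though not the same genes. Without that library Fosl1 (0.590 against 0.326 FPKM) was no longer called (adjusted p = 0.0719), and Creb3l1 was added as higher (adjusted p = 4.4e-06). Fosl1 averaged under 1 FPKM in EpiSCs too, so its EpiSC call also depends on the filter and rests on low levels. Atf3, an ATF4 target and partner, stood at 6.22, 11.9 and 10.9 FPKM against 0.805 ± 0.145 in ESCs. In 2CLCs 4 were higher and 5 lower, which median-of-ratios scaling turned to 6 higher and 3 lower. Called on both scales were 4 higher and 3 lower. Cebpa (9.99 ± 1.03 against 0.704 ± 0.0973 FPKM) and Atf2 (117 ± 4.93 against 24.3 ± 0.749 FPKM) were higher there, and Cebpg, a dimer partner of ATF4, was 3.45 times lower; all 3 were among those called on both.

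The metabolic arms were mostly lower in MEFs. Of 18 genes of amino acid and one-carbon synthesis 16 were lower and 2 higher in MEFs, with Cth, which makes cysteine from cystathionine, at 2.82 ± 0.0984 against 46.8 ± 0.52 FPKM and the serine hydroxymethyltransferase gene Shmt1 at 7.03 ± 0.244 against 76.6 ± 1.03 FPKM. Of 13 aminoacyl-tRNA synthetases, which charge tRNAs with amino acids, 12 were lower and 0 higher in MEFs, led by Aars (3.25 times). Of 13 amino acid transporters 8 were lower and 2 higher, and Slc7a3, a carrier of cationic amino acids, stood at 0.686 ± 0.2 against 66.1 ± 1.26 FPKM. ER chaperones and other targets of XBP1 and ATF6, which stand for the other branches of the ER stress response, went the other way: 16 of 19 were higher and 1 lower, with Xbp1 3.70 times higher. Quantile normalization and median-of-ratios scaling moved none of these MEF counts by more than 1. Of 23 tested growth and survival effectors 12 were higher and 7 lower in MEFs (14 and 5 under median-of-ratios scaling). That scaling moved the MEF calls over all genes from 5633 higher and 6686 lower to 6206 higher and 5856 lower.

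In EpiSCs 8 of the 18 synthesis genes were higher and 5 lower, 7 of 13 synthetases higher and 2 lower, and 7 of 13 transporters higher and 3 lower. Under median-of-ratios scaling these were 7 higher and 7 lower, 5 higher and 4 lower, and 7 higher and 3 lower. That scaling moved the calls over all genes from 5438 higher and 4327 lower to 4705 higher and 4942 lower. Sars was 2.47 times higher than in ESCs and Aars 1.49 times lower, and Slc7a1, an arginine carrier, was 5.03 times lower. Within the synthesis list Pycr1, of proline synthesis, was 2.59 times higher and Cth 6.24 times lower. In EpiSC replicates 1, 2 and 3 Cth was at 12.2, 4.92 and 5.40 FPKM, below every ESC library. Of 19 ER targets 4 were higher and 2 lower, and of 23 growth and survival effectors 13 were higher and 2 lower. Over all genes tested 59.7% were called, a larger share than of the ER targets.

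Without EpiSC replicate 1 the EpiSC counts were 8 higher and 5 lower for the synthesis genes, 7 and 2 for the synthetases, 8 and 4 for the transporters, 5 and 3 for the ER targets and 14 and 3 for the effectors. The synthesis genes behind these counts were not all the same: Mthfd2, of mitochondrial folate metabolism, was added as higher (1.26 times, adjusted p = 0.000386) and Psph, the last step of serine synthesis, was no longer called (adjusted p = 0.101). Slc38a2, which stood at 100.2 FPKM in replicate 1 and at a mean of 41.1 in the others, was called lower than in ESCs only without that library (1.28 times, adjusted p = 0.000328). Ppp1r15a (1.53 times higher, adjusted p = 1.3e-05) and Hspa5, the chaperone BiP (1.43 times lower, adjusted p = 8.39e-05), were likewise called only then. The fold of Cth became 9.07 and that of Impact 22.1, while Sars (2.56 times), Pycr1 (2.63 times), Aars (1.48 times) and Slc7a1 (5.78 times) lay close to their values with it.

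In 2CLCs 14 of 18 synthesis genes were lower and 0 higher, 12 of 13 synthetases lower and 1 higher, and 10 of 13 transporters lower and 1 higher. These counts depend on the scaling: under median-of-ratios scaling they were 6 lower and 9 higher, 4 lower and 6 higher, and 7 lower and 1 higher. Called in the same direction on both scales were 6 of the synthesis genes (all lower), 1 higher and 4 lower synthetases, and 1 higher and 7 lower transporters. Among them were Iars, the isoleucyl-tRNA synthetase (288 ± 19.6 against 85.2 ± 1.25 FPKM, 3.38 times higher), Slc7a3 (9.02 times lower) and Slc38a1, a glutamine carrier (9.93 times lower). Iars was the synthetase that was higher. Of 23 tested growth and survival effectors 17 were lower and 1 higher (8 lower and 7 higher under median-of-ratios scaling), and Bbc3 was 7.43 times lower. ER targets numbered 13 lower and 1 higher of 19 (4 lower and 12 higher under median-of-ratios scaling), with Dnajb9 3.15 times higher and Xbp1 3.94 times lower.

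**Figure D4:**
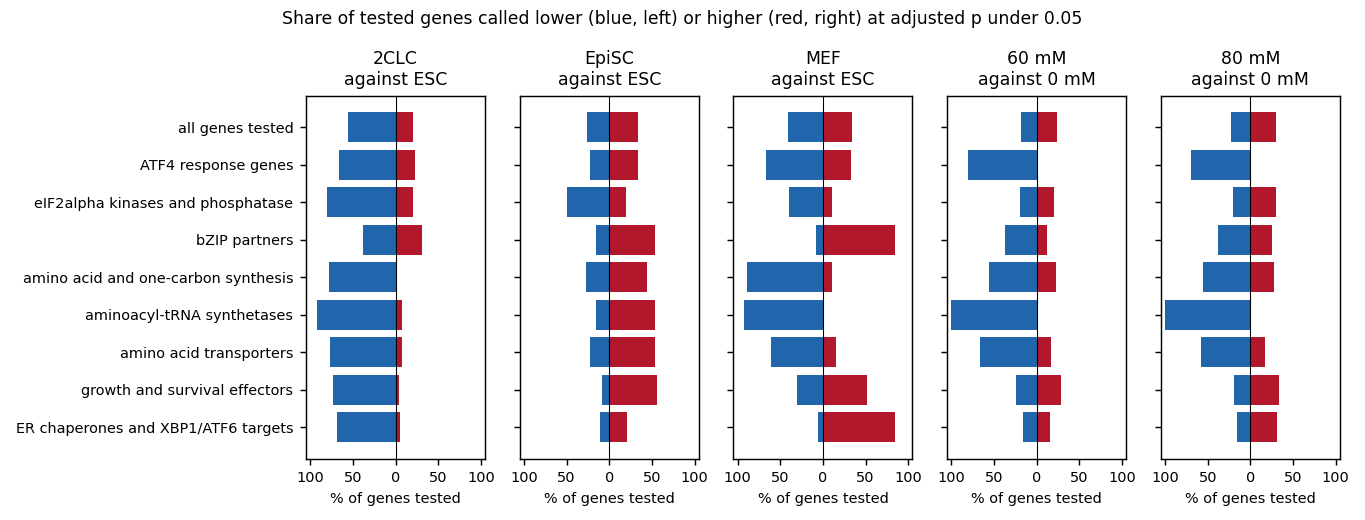
Share (horizontal axes, % of genes tested) of each list called lower (blue, to the left) or higher (red, to the right) in 5 comparisons, with all genes tested in the top row. At both lactate doses the ATF4 response genes and the synthetases have no red bar, and in MEFs the ER chaperones are mostly red.

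Lactate was compared within the second table, which was normalized separately from the first. With 60 mM sodium lactate 8 of the 10 genes fell and 0 rose, and with 80 mM 7 of the 10 fell and 0 rose. Nupr1 and Atf5 had the largest falls on the log2 scale. Asns and Ddit3 were not called at either dose, nor Sesn2 at 80 mM. At 60 mM 42.1% of all 13271 genes tested were called, 23.5% higher and 18.6% lower, and at 80 mM 53.1%, 30% higher and 23.1% lower. The median difference of the 10 genes was -0.40 at 60 mM and -0.29 at 80 mM, against 0.03 for all genes at each dose. Both doses are set against the same 3 libraries without lactate.

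**Figure D5:**
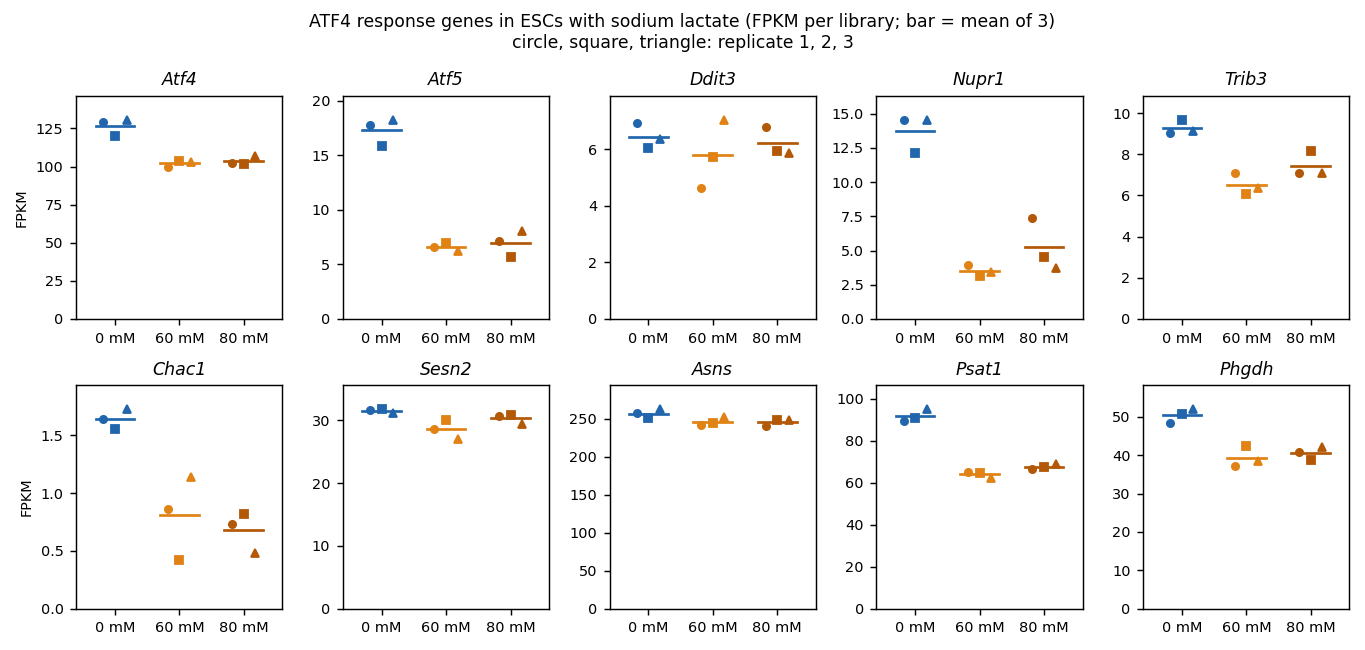
FPKM (vertical axes, each from 0) of the 10 genes in the 9 ESC libraries of the lactate table, with circles, squares and triangles for replicates 1, 2 and 3 and a bar at the mean of 3. For Atf4, Atf5, Nupr1, Trib3, Chac1, Sesn2, Psat1 and Phgdh every library with lactate lies below every library without it, for Sesn2 by little.

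Atf4 stood at 129, 120 and 131 FPKM without lactate, 99.8, 103 and 103 at 60 mM and 102, 101 and 107 at 80 mM. It fell at both doses, with no overlap (-0.31, SE 0.038, adjusted p = 0.000162 at 60 mM and -0.29, SE 0.038, adjusted p = 0.00014 at 80 mM). Atf5 fell further, from 17.8, 15.9 and 18.3 FPKM to 6.58, 6.99 and 6.28 at 60 mM and 7.11, 5.70 and 8.08 at 80 mM. Its mean was 2.62 times lower at 60 mM (-1.27, SE 0.103, adjusted p = 1.23e-05) and 2.49 times lower at 80 mM (-1.21, SE 0.103, adjusted p = 7.05e-06). Ddit3 overlapped between all groups, at 6.92, 6.04 and 6.38 FPKM without lactate, 4.63, 5.72 and 7.05 at 60 mM and 6.80, 5.94 and 5.88 at 80 mM (adjusted p = 0.355 and 0.753).

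Nupr1 stood at 14.6, 12.1 and 14.6 FPKM without lactate, 3.95, 3.12 and 3.42 at 60 mM and 7.41, 4.53 and 3.76 at 80 mM. The libraries with lactate were all lower, those at 80 mM being more spread. The mean was 3.94 times lower at 60 mM (-1.71, SE 0.179, adjusted p = 5.6e-05) and 2.63 times lower at 80 mM (-1.28, SE 0.179, adjusted p = 0.000198). Trib3 went from 9.02, 9.69 and 9.15 FPKM to 7.08, 6.07 and 6.35 at 60 mM (-0.46, SE 0.073, adjusted p = 0.000769) and 7.07, 8.18 and 7.10 at 80 mM (-0.29, SE 0.073, adjusted p = 0.0079), without overlap with the libraries lacking lactate.

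The effectors differed in size. Chac1 was near the filter, at 1.64, 1.55 and 1.72 FPKM without lactate, 0.86, 0.43 and 1.14 at 60 mM and 0.74, 0.82 and 0.48 at 80 mM. It was tested because the libraries without lactate passed 1 FPKM, so its falls (-0.57, SE 0.149, adjusted p = 0.0122 and -0.66, SE 0.149, adjusted p = 0.00401) are partly set by that filter and rest on low levels. Sesn2 stood at 31.6, 31.8 and 31.2 FPKM without lactate, 28.6, 30.1 and 27.0 at 60 mM and 30.7, 30.9 and 29.4 at 80 mM. Its groups did not overlap with that without lactate, but the differences were small, called at 60 mM (-0.14, SE 0.043, adjusted p = 0.0264) and not at 80 mM (-0.05, SE 0.043, adjusted p = 0.322). The call at 60 mM was lost when 1 of 4 libraries was left out (0 mM replicate 1 or 2, or 60 mM replicate 1 or 3), with adjusted p from 0.0589 to 0.0936, and without a filter (0.0508) or with quantile normalization (0.0576).

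Among the enzymes, Psat1 fell from 89.3, 91.0 and 95.0 FPKM to 65.4, 64.5 and 62.3 at 60 mM (-0.51, SE 0.034, adjusted p = 3.25e-06) and 66.7, 67.4 and 69.1 at 80 mM (-0.43, SE 0.034, adjusted p = 4.1e-06). Phgdh fell from 48.5, 50.6 and 52.0 FPKM to 37.2, 42.3 and 38.5 at 60 mM (-0.35, SE 0.052, adjusted p = 0.000518) and 40.8, 38.9 and 42.2 at 80 mM (-0.30, SE 0.052, adjusted p = 0.000818). Asns, by contrast, stood at 257, 251 and 262 FPKM without lactate, 242, 245 and 252 at 60 mM and 241, 249 and 248 at 80 mM. Its difference of -0.06 at each dose was not called (SE 0.027, adjusted p = 0.101 and 0.0847).

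Median-of-ratios scaling moved the falls slightly further from 0. Under it Asns was called lower at 60 mM (-0.10, adjusted p = 0.0135) and 80 mM (-0.13, adjusted p = 0.00312), and Sesn2 was called lower at 80 mM (-0.12, adjusted p = 0.0387), so that 9 of the 10 genes were lower at each dose. Calls over all genes shifted towards lower under that scaling as well. At 60 mM the split changed from 3117 higher and 2474 lower to 2571 higher and 3026 lower. At 80 mM it changed from 3977 higher and 3064 lower to 3269 higher and 3913 lower. At both doses no gene of the 10 rose under any alternative tried.

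Between 80 and 60 mM 0 of the 10 genes were called by limma, where 6.17% of all genes tested were, 4.06% higher and 2.11% lower. At an unadjusted p under 0.05 there were 3, all higher at 80 mM: Nupr1 (0.43, adjusted p = 0.189), Trib3 (0.17, adjusted p = 0.204) and Psat1 (0.08, adjusted p = 0.197). Of all genes tested 22.4% passed that unadjusted threshold, so 3 of 10 is near the background. Psat1 was the gene whose groups did not overlap. A further fall from 60 to 80 mM was thus not detected for any of the 10.

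Beside the 10 genes, 13 of 13 aminoacyl-tRNA synthetases fell at each dose, with a median of -0.34 at each and a range from -0.60 to -0.15 at 60 mM and from -0.64 to -0.18 at 80 mM. Cars went from 53.3 ± 0.511 FPKM without lactate to 34.9 ± 0.259 at 60 mM and 34.9 ± 1.46 at 80 mM (SD, n = 3), and Lars from 63.6 ± 1.29 to 40.4 ± 0.97 at 80 mM. The count was 13 of 13 under both scalings. Of 18 synthesis genes 10 fell and 4 rose at 60 mM, and 10 fell and 5 rose at 80 mM. Prodh, which breaks down proline, was 1.87 and 2.65 times lower at 60 and 80 mM, while Cbs, which makes cystathionine, was 1.46 and 1.61 times higher and Cad, of pyrimidine synthesis, 1.24 and 1.31 times higher.

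Of 12 tested transporters 8 fell and 2 rose at 60 mM, and 7 fell and 2 rose at 80 mM. Slc7a3 went from 63.9 ± 1.85 FPKM to 36.4 ± 1.17 at 60 mM and 27.8 ± 1.3 at 80 mM, and was lower at 80 than at 60 mM (-0.38, SE 0.043, adjusted p = 0.002). Slc7a6 (1.66 and 1.81 times) and Slc38a2 (1.14 and 1.29 times), carriers of amino acids into the cell or in exchange, rose. Among regulators of eIF2alpha phosphorylation 2 rose and 2 fell at 60 mM and 3 rose and 2 fell at 80 mM. Eif2ak3 was 1.20 and 1.42 times higher and Impact 1.62 and 1.87 times lower. Ppp1r15a was 1.26 times higher at 80 mM.

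Not all stress targets outside the 10 genes fell with lactate. Of 21 tested growth and survival effectors 6 rose and 5 fell at 60 mM, and 7 rose and 4 fell at 80 mM. Ddit4 went from 6.31 ± 0.426 FPKM to 12.3 ± 0.392 at 60 mM and 17.3 ± 0.301 at 80 mM, and Sqstm1, the autophagy receptor p62, rose 1.19 and 1.29 times. Eif4ebp1, a repressor of translation initiation, was 1.19 and 1.15 times lower. Of 19 ER targets 3 rose and 3 fell at 60 mM, and 6 rose and 3 fell at 80 mM, with Dnajb9 1.38 and 1.44 times higher and Herpud1 1.83 and 1.87 times lower. Nfe2l2, the antioxidant factor NRF2 and a bZIP partner of ATF4, was 1.34 and 1.37 times lower.

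Markers of several cell states moved with the dose, and not all members of a list moved together. The sum of the 8 markers of 2CLCs was 28.2 to 28.5 FPKM without lactate, 59.0 to 65.2 at 60 mM and 96.9 to 100.3 at 80 mM, and that of 7 naive ESC markers 1568 to 1626, 1738 to 1802 and 1817 to 1872. Most of the naive sum is Dppa5a, with means of 823, 1030.0 and 1087 FPKM, while the means of Nr0b1 (53.8, 23.1 and 19.0), Esrrb (234, 186 and 180.0) and Tfcp2l1 (87.1, 75.6 and 70.1) were lower with lactate. The sums of 7 primed markers were 69.9 to 74.4, 92.6 to 100.9 and 100.1 to 105.5 FPKM, with Otx2 at means of 3.83, 11.2 and 13.1 and Zic2 at 12.6, 7.94 and 6.02. Those of 6 trophectoderm markers were 24.7 to 24.8, 28.2 to 29.6 and 32.1 to 34.6 FPKM, with Cdx2 at means of 1.67, 3.85 and 5.05. Those of 9 fibroblast markers were 1.38 to 1.56, 4.01 to 4.79 and 5.80 to 6.08 FPKM, mostly Thy1 (means of 0.50, 2.94 and 4.10), while the means of Col1a1 were 0.11 or below and those of Dcn 0.012 or below. Their part in the falls seen among the 10 genes was not tested.

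By likeness to the mean profile of the genes tested (the mean of their log2 values after each was centred), measured by Pearson's correlation over the 12 libraries of the cell-state table among 8730 genes, the nearest were Ciart (0.9833), Kdm4c (0.9833), Poll (0.9782), Ankmy2 (0.9771) and Snrnp25 (0.9748). Kdm4c, a histone demethylase gene, stood at 28.5 FPKM in EpiSCs, 17.2 in ESCs, 6.97 in 2CLCs and 6.25 in MEFs, and Ciart, a circadian repressor gene, at 11.9, 5.72, 0.374 and 0.785. Over the 9 libraries of the lactate table, among 259 genes, they were Il34 (0.9894), Parvb (0.986), Tfeb (0.9855), Dusp9 (0.9767) and Lgals3 (0.9753). Tfeb, the regulator of lysosomal genes, stood at 17.4 FPKM without lactate, 7.32 at 60 mM and 9.22 at 80 mM, and Il34, a cytokine gene, at 5.80, 2.06 and 2.18. These correlations describe libraries that fall into few groups. Those over the cell states include EpiSC replicate 1. The EpiSC libraries were widely spread for Kdm4c (SD 11.2 FPKM) and Ciart (SD 7.62 FPKM). In the other states the SD was at most 1.03 FPKM for Kdm4c and 0.192 FPKM for Ciart. The part of EpiSC replicate 1 in the cell-state correlations was not tested.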

How the data were processed

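The authors deposited FPKM per gene in a table for each experiment. Per the submitters' processing notes, HISAT2 2.0.4, StringTie 2.1.4 and mm10 were used, and for the annotation nothing is given in the sources used here. Per the labels, RNA was isolated with Trizol and a TruSeq kit was used for the libraries. Entries that share a name were summed. Read counts could not be recovered, so depth is unknown and no counting intervals are given.

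A gene was tested in a table where 3 or more libraries reached 1 FPKM. Log2(FPKM + 1) values entered limma 3.58.1 in R 4.3.3, once per table over all its groups, with variances moderated along a mean trend and p-values adjusted by Benjamini-Hochberg within a comparison (threshold 0.05). Alternatives were median-of-ratios scaling and quantile normalization, pseudocounts of 0.1 and 5, a filter of 5 FPKM or none, variances without the trend, only the groups compared, a replicate block, a minimum change of 1 and leaving out each library. The fit was tested on simulated data with 200 changed genes per draw and 10 draws: it recovered 53.5 to 56.2% of changes of 0.5 and 88.5 to 90.5% of changes of 1 in the 3 cell-state comparisons with ESCs, 85.9 to 88.5% and 97.6 to 98.8% in the lactate comparisons, and 5.16 to 6.61% of calls were false. The changed genes lay above 5 FPKM, rose and fell in near equal numbers, and had the same noise in all groups. In the data most comparisons changed far more genes, most 2CLC values were lower, and EpiSC replicate 1 stood apart. The simulated shares therefore do not carry over to these comparisons or to genes near 1 FPKM.

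From the 7 lists, genes are named that were among the largest called rises and falls of a list in a comparison, at 5 FPKM or more in the higher group, with groups that do not overlap; Atf3, Ddit4, Vldlr, Bbc3, Cth and the marker genes are also shown by library where a single library matters. Genes named because a call changed without EpiSC replicate 1 (Mthfd2, Psph, Slc38a2, Ppp1r15a, Hspa5, Creb3l1) were chosen after their values were seen. So were those named because a call stood on both scales in MEFs (Eif2s1, Gcn1, Ppp1r15b). A gene of these lists is not reported here. The 10 genes, the lists and the markers were chosen with earlier results of these data known. Tables, promoter windows and figures were made in Python 3.11.15 (pandas 2.3.3, numpy 2.4.6, matplotlib 3.10.9).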

Additional observations from a re-analysis of the deposited data

How the results depend on the processing

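The counts of genes called in either direction kept within 1.5 times of their value under pseudocounts of 0.1 and 5 and both scalings. They also did so with no filter, a filter of 5 FPKM, no mean trend and a fit of only the groups compared. The split by direction did not hold in 2CLCs. There 2 genes were higher and 6 lower on the deposited scale, and 5 higher and 2 lower under median-of-ratios scaling. With a minimum change of 1 (log2) the counts were 4 in 2CLCs, 2 in EpiSCs, 5 in MEFs, 2 at 60 mM and 2 at 80 mM, and 6 of the neighbouring cell states. The share of all genes at that minimum was not computed, so these counts cannot be set against a background. Leaving out 1 library at a time gave 8 to 8 in 2CLCs, 5 to 8 in EpiSCs (8 without EpiSC replicate 1), 7 to 9 in MEFs, 7 to 8 at 60 mM, 7 to 7 at 80 mM, 0 to 0 between the doses and 14 to 24 neighbouring pairs. In 2CLCs Atf4 (0.16) and Phgdh (0.39) reversed under median-of-ratios scaling. Between 80 and 60 mM, where no gene was called, Atf4 reversed under median-of-ratios scaling (-0.0047) and Asns under quantile normalization (0.018). There, leaving out 1 library gave -0.0046 to 0.035 for Atf4, -0.046 to 0.173 for Atf5, -0.253 to 0.0399 for Chac1, -0.032 to 0.225 for Ddit3 and -0.014 to 0.017 for Asns. The causes were not tested. Labels number the replicates of every group 1 to 3. Deviations of same-numbered libraries correlated at -0.1 to 0.149 in the cell-state table (over 0.1 in 2 of 18 pairs) and -0.064 to 0.0984 in the lactate table (0 of 9). Whether same-numbered libraries were prepared together cannot be told from these weak correlations. With a replicate block the counts were 8 in 2CLCs, 5 in EpiSCs, 8 in MEFs (Sesn2 not called, adjusted p = 0.0507), 8 at 60 mM, 7 at 80 mM, 0 between the doses and 17 neighbouring pairs. Depth is unknown, so levels near 1 FPKM, such as those of Chac1 with lactate, cannot be given a counting error.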
